A study of Mus musculus with 23 samples.

Results

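Sox9, Id2, Id3 and Id4 encode transcription regulators of glial cells, and their levels were followed in spinal cord lesion tissue of mice. They were taken by gene symbol from the authors' count tables of 2 RNA fractions. All 4 have a row in both tables, of 9363 genes in one table and 4898 in the other, and 4781 genes are in both. Id1, the remaining member of the Id family, has no row in either table. Each of the 4 is counted through 1 transcript row, so the sum over a gene's rows is that row's count.

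The mice carried RiboTag, a ribosomal protein that gains a hemagglutinin (HA) tag where Cre recombinase is active, and Cre was driven by a mouse Gfap promoter. All were young adults whose cord had been crushed severely (spinal cord injury, SCI) at thoracic segment 10, and tissue was the central 3 mm of the lesion at 14 days. Tagged ribosomes were precipitated, which gives the HA fraction, intended to hold RNA on astrocyte ribosomes; the RNA left behind is the flow-through (FT). The 3 treatments below were compared in each fraction: SCI only (4 HA and 4 FT libraries), SCI with a hydrogel depot labelled CT (3 and 4), and SCI with a hydrogel depot and growth factors (3 and 5), both depots being placed on day 2. There was no uninjured group, so each level is one of injured tissue. The labels give the genotype of all animals as wild type, do not explain CT (the column names call that group EmGel), and name the growth factors in conflicting ways (FGF and EGF in the series title, BDNF and NT3 in the column names). A library is called here by its group and the number in its title, such as 1724. Nothing states that each number is a separate animal, so p-values measure the spread between libraries, which may be technical.

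SOX9 is an HMG-box transcription factor that marks astrocytes in the adult central nervous system and is needed for the switch from neuron to glia production during development. The ID proteins contain a helix-loop-helix domain but no basic region. They pair with E proteins and related bHLH factors and keep them from binding DNA, and they are classic targets of BMP signalling through SMAD proteins. Both SOX9 and BMP signalling are known to be active in reactive astrocytes after cord injury.

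The promoters of the Id genes are printed because these genes are known as BMP targets and differ in base composition. They are shown from 250 bases before to 50 bases after the annotated start, from RefSeq (GRCm38.p6), for the 3 of 4 members that have an entry in that table; Sox9 is named only. Capitals mark CAGAC or its reverse complement GTCTG (a SMAD-binding element), GGCGCC (a G+C-rich SMAD motif of BMP-responsive genes) and GGGCGG or CCGCCC (a GC box), searched on both strands. The Id2 promoter lies at chr12:25096043-25096342 on the minus strand, that of Id3 at chr4:136143572-136143871 on the plus strand and that of Id4 at chr13:48260866-48261165 on the plus strand. The RefSeq start of Id2 is also that of the counted transcript given below, that of Id3 lies 325 bases inside its counted transcript, so the whole window is transcribed in that model, and that of Id4 lies 112 bases upstream.
Id2: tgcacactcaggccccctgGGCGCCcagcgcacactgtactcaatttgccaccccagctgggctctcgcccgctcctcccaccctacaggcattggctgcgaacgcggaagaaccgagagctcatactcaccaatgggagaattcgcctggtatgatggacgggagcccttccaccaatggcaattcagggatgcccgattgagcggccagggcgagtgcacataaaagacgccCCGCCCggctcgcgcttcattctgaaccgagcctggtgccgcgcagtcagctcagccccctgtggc
Id3: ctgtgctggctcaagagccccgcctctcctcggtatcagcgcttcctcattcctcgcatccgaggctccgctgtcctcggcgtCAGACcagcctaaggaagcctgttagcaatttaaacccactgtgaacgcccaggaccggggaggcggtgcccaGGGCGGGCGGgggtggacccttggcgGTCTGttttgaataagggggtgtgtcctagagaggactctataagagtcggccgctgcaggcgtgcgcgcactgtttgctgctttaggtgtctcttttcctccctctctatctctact
Id4: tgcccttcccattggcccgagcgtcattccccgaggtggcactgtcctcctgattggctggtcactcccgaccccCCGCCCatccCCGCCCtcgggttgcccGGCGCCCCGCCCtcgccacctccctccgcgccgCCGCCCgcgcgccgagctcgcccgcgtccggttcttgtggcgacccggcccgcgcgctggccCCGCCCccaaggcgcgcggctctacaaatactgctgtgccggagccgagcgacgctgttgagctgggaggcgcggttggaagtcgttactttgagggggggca

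The letters CAGAC matched 2 times in the Id3 window and not in those of Id2 and Id4, and 49.6% of 32817 mouse promoter windows of this length hold them. GGCGCC matched 1 time in the Id2 window and 1 time in that of Id4 but not in that of Id3, against 11.9% of all windows that hold it. In the Id4 window, GGCGCC ends next to a GC box. GGGCGG matched 1 time in Id2, 2 times in Id3 (overlapping matches) and 5 times in Id4, and 35.6% of windows hold it. The E-box CANNTG, to which bHLH factors bind, matched 1 time in Id2 and not in the windows of Id3 and Id4, against 72.3% of windows. G+C content was 63.3%, 60.0% and 73.3% in Id2, Id3 and Id4, against a median of 52.7% over all windows. A match describes the letters and does not show that a factor binds.

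The transcripts differ in length and base composition. The Sox9 row is ENSMUST00000000579 (GRCm38, chr11:112782224-112787760, plus strand, 3 exons, 4135 bases, G+C 49.3%). That of Id2 is ENSMUST00000020974 (chr12:25093801-25096092, minus strand, 3 exons, 1270 bases, G+C 42.4%). That of Id3 is ENSMUST00000008016 (chr4:136143497-136145392, plus strand, 3 exons, 1278 bases, G+C 55.6%). That of Id4 is ENSMUST00000021810 (chr13:48261228-48266026, plus strand, 3 exons, 3849 bases, G+C 42.6%). Of the genes tested among HA libraries, 13.1% had a lower G+C content than Id2, 13.7% than Id4, 49.8% than Sox9 and 83.4% than Id3.

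Depth set what could be read in each fraction. Total counts ran from 7.94e+06 to 2.43e+07 in the HA libraries, from 2.24e+06 to 5.43e+06 in FT after SCI only, and from 19607 to 145365 in FT of the hydrogel groups. A single long non-coding locus, Yam1, took between 13.7% and 93.1% of the counts of a library, and more after SCI only (87.8% to 93.1%) than in HA of the hydrogel groups (40.0% to 75.7%). Levels are therefore given as CPM (counts per 1e6 of the scaled library size), scaled to the typical gene (TMM over all 23 libraries). On this scale a count of 3, taken as the limit that a count of 0 allows, equals 0.0808 to 1.85 CPM in HA and 1.02 to 38.7 CPM in FT, counting error only. Cell type markers were summed over those with a row in both tables. The 14 of 16 such astrocyte markers summed to 5785 to 15151 CPM in HA against 363 to 7547 CPM in FT. The 7 of 12 oligodendrocyte progenitor markers summed to 510 to 1152 CPM in HA and to 37.1 to 311 CPM in FT, so they moved with the fraction in the same direction. The 11 of 13 oligodendrocyte markers summed to 1078 to 2937 CPM in HA and 153 to 1355 CPM in FT, and the 9 of 14 neuron markers to 61.8 to 683 CPM in HA and 297 to 1735 CPM in FT.

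Sox9 had group means of 47.7 to 61.5 CPM in the HA libraries of the 3 treatments. After SCI only it was at 54.9 CPM in library 9596, 28.2 in 9843, 65.3 in 9874 and 59.7 in 9935. With hydrogel CT it was at 48.5 CPM in 1724, 46.6 in 1759 and 48.0 in 1762, the closest agreement of any member in any HA group (47.7 ± 0.966, SD, n = 3). With growth factors it was at 29.5 CPM in 1685, 49.7 in 1687 and 105 in 1732. The groups overlapped in every pair, and the growth factor group held both a library near the lowest level and the highest one. In FT the 4 SCI-only libraries were at 5.44, 5.00, 13.3 and 2.59 CPM (9596, 9843, 9874 and 9935, from 16, 5, 14 and 1 reads). The 4 hydrogel CT libraries of FT were at 12.9, 3.70, 9.36 and 9.33 CPM, each on 1 to 4 reads. Of the 5 FT libraries with growth factors, 1645 had 0 reads, 1685, 1687 and 1732 were at 9.40, 8.03 and 4.57 CPM, and 1729 was at 53.1 CPM on 7 reads.

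Id2 overlapped between the fractions over most of its range. In HA after SCI only it was at 6.56, 22.9, 10.2 and 22.2 CPM (9596, 9843, 9874, 9935), with hydrogel CT at 23.6, 38.3 and 96.0 CPM (1724, 1759, 1762), and with growth factors at 18.3, 13.7 and 30.4 CPM (1685, 1687, 1732). The lowest hydrogel CT library thus lay just above the highest SCI-only library, and 18.7% of genes tested in HA were separated in either direction. In FT it was at 8.84, 8.99, 6.66 and 0 CPM after SCI only, at 38.7, 18.5, 14.0 and 65.3 CPM with hydrogel CT (1683, 1724, 1759, 1762), and at 0, 4.70, 8.03, 75.8 and 33.3 CPM with growth factors (1645, 1685, 1687, 1729, 1732). All 4 hydrogel CT libraries of FT lay above the SCI-only ones, as in 16.7% of genes tested there (in either direction), whereas those with growth factors spanned the whole range. At this depth 1 read in the hydrogel CT library 1683 equals 12.9 CPM, which is above every SCI-only value of Id2 in FT.

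Id3 had the widest range among HA libraries, from 11.1 to 167 CPM. In HA after SCI only it was at 78.8, 88.5, 129 and 167 CPM (9596, 9843, 9874, 9935), with hydrogel CT at 11.1, 57.5 and 26.6 CPM (1724, 1759, 1762), and with growth factors at 98.0, 55.9 and 149 CPM (1685, 1687, 1732). All 3 hydrogel CT libraries lay below all 4 SCI-only libraries, while 18.7% of genes tested in HA were separated in either direction. In FT after SCI only it was at 5.78, 8.99, 14.3 and 31.1 CPM on 9 to 17 reads. With hydrogel CT the 4 FT libraries held 1 read in all, in 1724 (3.70 CPM), and with growth factors the 5 FT libraries were at 0, 28.2, 8.03, 15.2 and 2.61 CPM on 0 to 6 reads.

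Id4 was lower in HA after SCI only than in most hydrogel libraries. After SCI only it was at 56.9, 31.3, 24.0 and 26.5 CPM (9596, 9843, 9874, 9935), with hydrogel CT at 37.1, 133 and 103 CPM (1724, 1759, 1762), and with growth factors at 87.7, 53.1 and 107 CPM (1685, 1687, 1732). Library 9596 after SCI only overlapped both hydrogel groups. In FT it was at 10.9, 5.00, 5.71 and 33.7 CPM after SCI only and at 64.5, 33.3, 25.7 and 9.33 CPM with hydrogel CT. With growth factors, 3 of 5 FT libraries (1645, 1685 and 1687) had 0 reads, 1729 was at 30.3 CPM and 1732 at 24.2 CPM. In 1645 all 4 members had 0 reads, where 3 reads would equal 37.1 CPM.

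**Figure D1:**
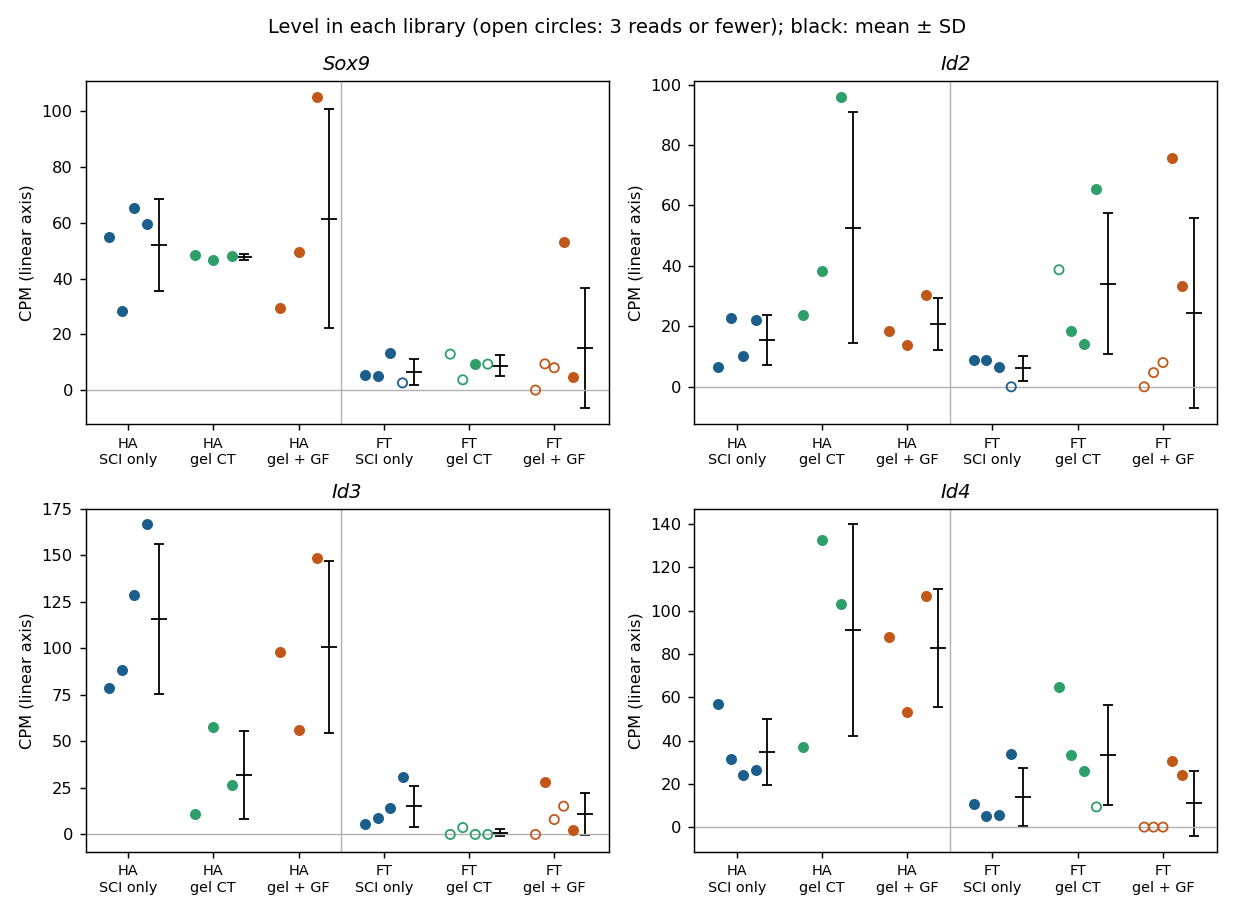
Level of each member in each of the 23 libraries in CPM on a linear axis, by fraction (HA, FT) and treatment (SCI only, hydrogel CT as gel CT, hydrogel with growth factors as gel + GF), with the mean and SD of each group in black. Open circles rest on 3 reads or fewer. For Id3 all 3 HA libraries with hydrogel CT, at 11.1 to 57.5 CPM, lie below the SCI-only ones, at 78.8 to 167 CPM. These groups are separate, in either direction, in 18.7% of tested genes, and the Id3 difference did not pass (edgeR adjusted p = 0.267).

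Per transcript length, Id3 had the highest mean level in HA over all 10 libraries, but not with hydrogel CT. It averaged 67.3 ± 39.8 CPM per kb (SD, n = 10), followed by Id2 at 22.2 ± 20.1, Id4 at 17.1 ± 10.1 and Sox9 at 12.95 ± 5.22 CPM per kb. The means of each pair of neighbours in this order lay within the sum of their SDs. By treatment, Id3 averaged 90.5 ± 31.5 CPM per kb after SCI only (n = 4) and 78.9 ± 36.3 with growth factors (n = 3), above the other 3 members. With hydrogel CT (n = 3) Id2 averaged 41.4 ± 30.1, Id3 24.8 ± 18.5, Id4 23.6 ± 12.7 and Sox9 11.5 ± 0.234 CPM per kb. Id3 was first of the 4 in 8 of 10 HA libraries, and Id2 was first in the other 2, both with hydrogel CT (1724 and 1762). Among the 12 FT libraries with any read of a member, Id2 was first in 9 and Id3 in 3, most of them on few reads.

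The comparison of HA with FT asks which members lie on tagged ribosomes more than in the rest of the tissue. It used the 10 title numbers present in both fractions and edgeR's quasi-likelihood test, with Benjamini-Hochberg adjustment over the 3295 genes tested and a threshold of 0.05. Sox9, Id3 and Id4 were higher in HA and Id2 did not pass, so 3 of 4 members were higher, where 13.2% of all tested genes were. Id3 averaged 86.0 ± 50.9 CPM in HA and 10.3 ± 11.1 CPM in FT (SD, n = 10), a log2 difference of 3.05 (SE 0.50, 8.30-fold, edgeR adjusted p = 2.98e-05), and was higher in HA in 10 of 10 numbers. Sox9 averaged 53.6 ± 21.6 against 7.07 ± 3.34 CPM, a log2 difference of 2.67 (SE 0.44, 6.37-fold, edgeR adjusted p = 2.54e-05), also higher in 10 of 10 numbers. Over these 20 libraries the lowest HA value of Sox9 (28.2 CPM) exceeded the highest FT value (13.3 CPM), the only member for which the fractions did not overlap. Of all tested genes, 2.49% were separated in this way. The FT values rest on few reads, 1 to 16 per library for Sox9 (53 in all) and 0 to 17 for Id3 (65 in all). A count of 3 equals 1.02 to 24.1 CPM in these FT libraries. FT library 1729, at 53.1 CPM, is not among the 20. With all 23 libraries in the fit the Sox9 difference was 2.21.

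Id4 averaged 65.9 ± 38.8 CPM in HA and 14.8 ± 13.2 in FT, a log2 difference of 1.69 (SE 0.47, 3.24-fold, edgeR adjusted p = 0.00885), and was higher in 9 of 10 numbers. Id2 averaged 28.2 ± 25.6 CPM in HA and 16.8 ± 19.3 in FT, a log2 difference of 0.48 (SE 0.49, edgeR adjusted p = 0.536), and was higher in 8 of 10 numbers. The median log2 difference of all tested genes was 0.28, and 7.37% of them were lower in HA. After a correction for G+C content the median moved to -0.28, and 139 genes were higher and 421 lower, against 435 and 243 without it. The correction fits the levels of each library on G+C content, so it also resets the overall level of each library. These effects were not separated. On that scale Sox9 (2.11, edgeR adjusted p = 0.00382) and Id3 (1.87, edgeR adjusted p = 0.0345) still passed, while Id4 did not (1.38, edgeR adjusted p = 0.0742). In bulk RNA, fewer cells that express a gene and less RNA per cell cannot be told apart.

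The difference between fractions was also taken within each treatment, from a fit with 6 group means over 4747 genes. After SCI only, Sox9 (log2 2.92, SE 0.67, edgeR adjusted p = 0.0100) and Id3 (3.04, SE 0.72, edgeR adjusted p = 0.0125) were higher in HA, which is 2 of 4 members where 2.25% of genes were. With hydrogel CT only Id3 passed (4.79, SE 1.25, edgeR adjusted p = 0.0296), or 1 of 4 members against 1.60% of genes. Its FT libraries held 1 read against 2556 in HA, so that the ratio of pooled counts over pooled scaled library sizes was 28.4 with a 95% counting interval of 5.09 to 1121. Sox9 was at 2.66 (SE 0.84, edgeR adjusted p = 0.0752) in that group. With growth factors, Sox9 (3.24, SE 0.88, edgeR adjusted p = 0.0130), Id3 (3.19, SE 0.92, edgeR adjusted p = 0.0185) and Id4 (2.78, SE 0.88, edgeR adjusted p = 0.0335) were higher, or 3 of 4 members against 8.24% of genes. Id2 lay between 0.21 and 1.19 in the 3 treatments and passed in none; its sign turned in the growth factor group with DESeq2 size factors (-0.54) and with hydrogel CT under the G+C correction (-0.35).

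The calls within the hydrogel groups depended on the scaling. With DESeq2 size factors the edgeR adjusted p of Id3 with hydrogel CT was 0.0655, and with growth factors those of Sox9, Id3 and Id4 were 0.0509, 0.0773 and 0.121. The median of all genes moved from 0.48 to -0.25 in the growth factor group under that scaling. DESeq2 itself called 1 of 4 members within hydrogel CT (Id3, DESeq2 adjusted p = 0.0445), where 69 of 4714 genes were called higher in HA. With growth factors it called 2 of 4 (Sox9 and Id3, DESeq2 adjusted p = 0.0176 and 0.0431), where 279 of 4714 genes were called higher. Sox9 and Id3 after SCI only kept their calls, at adjusted p = 0.0135 and 0.0179 by edgeR. With the G+C correction, Sox9 after SCI only was the 1 member call left within a treatment (3.00, edgeR adjusted p = 0.0384). There 40 of 4747 genes were called higher in HA, and Id3 was at 2.65 (edgeR adjusted p = 0.104).

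**Figure D2:**
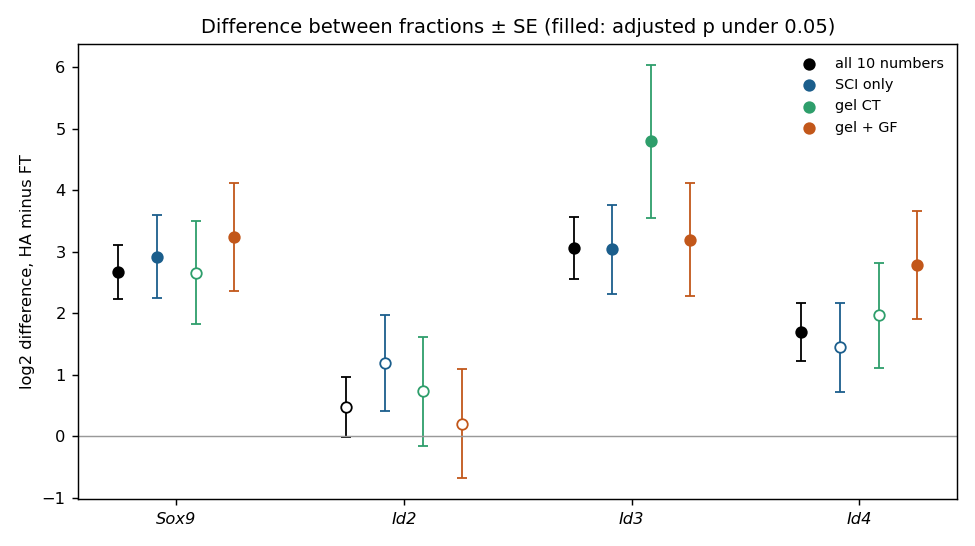
Log2 difference between HA and FT for each member, over all 10 title numbers and within SCI only, hydrogel CT (gel CT) and hydrogel with growth factors (gel + GF). Points are estimates of the edgeR fits, bars are ± 1 SE and filled points passed an adjusted p of 0.05; Id2 stays between 0.21 and 1.19 in all 4 estimates, below the others.

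Whether the difference between fractions itself depended on treatment was tested as an interaction. No member passed by edgeR in any of the 3 pairs of treatments, none at an unadjusted p of 0.05, and none by DESeq2. The 12 interaction estimates ran from -1.60 to 1.75 on the log2 scale with SEs of 1.05 to 1.71, and the edgeR adjusted p from 0.616 to 0.983. Of all 4747 genes, 0% passed by edgeR in both contrasts with hydrogel CT and 0.0421% in that of growth factors with SCI only. Below an unadjusted p of 0.05 by edgeR were 579 (growth factors against hydrogel CT), 261 (hydrogel CT against SCI only) and 653 genes (growth factors against SCI only). DESeq2 called 42, 1 and 84 of 4714 genes in the same order. With such SEs a difference between treatments of several fold would not have been detected.

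In the HA fraction the treatments were compared over 6654 genes. No member passed in any of the 3 comparisons by edgeR or DESeq2. By edgeR, 0.195% (hydrogel CT against SCI only), 0.436% (growth factors against SCI only) and 0.0902% (growth factors against hydrogel CT) of genes passed. DESeq2 called 244, 715 and 293 of 6337 genes in the same order. At an unadjusted p of 0.05 by edgeR, 3 of 4 members came below in the first (Id2, Id3 and Id4). In each of the others 1 did, Id4 and Id3 in turn. Of the 6654 genes, 843, 1396 and 886 were below it in the 3 comparisons. Comparisons with SCI only also compare 2 ranges of title numbers (9596 to 9935 against 1685 to 1762 in HA), so the hydrogel and whatever else differs between those ranges cannot be told apart. All comparisons share libraries.

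Between hydrogel CT and SCI only, the 3 Id genes had opposite signs. Id2 averaged 52.6 ± 38.3 CPM (n = 3) against 15.5 ± 8.30 (n = 4), a log2 difference of 1.86 (SE 0.74, edgeR adjusted p = 0.305). Id4 averaged 90.9 ± 48.9 against 34.7 ± 15.1 CPM, or 1.44 (SE 0.60, edgeR adjusted p = 0.327). Id3 averaged 31.7 ± 23.6 against 116 ± 40.3 CPM, or -1.81 (SE 0.65, edgeR adjusted p = 0.267; DESeq2 adjusted p = 0.0501). Sox9 averaged 47.7 ± 0.966 against 52.0 ± 16.5 CPM, or -0.07 (SE 0.61, edgeR adjusted p = 0.976). Without library 1762, the highest for Id2, the Id2 difference was 1.12, and without 1759, the highest of its group for Id3, the Id3 difference was -2.53. Id2 and Id3 were the 2 of 4 members whose groups did not overlap, as in 18.7% of all tested genes.

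Base composition moved with this contrast over all genes. The log2 difference between hydrogel CT and SCI only had a Pearson correlation of -0.47 with transcript G+C content across 6643 genes, which are not independent replicates. Its median was 1.19 among the 2214 genes of lowest G+C content (up to 46.5%), where Id2 and Id4 lie, 0.28 among the 2214 in the middle, where Sox9 lies, and -0.69 among the 2215 of highest G+C content (above 52.3%), where Id3 lies. After the G+C correction, Id2 was at 0.07 and Id4 at -0.07, while Id3 was at -1.47 and Sox9 at -0.69, none past the threshold. The median of all tested genes moved from 0.27 to -0.31 with that correction, which also resets the overall level of each library.

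With growth factors against SCI only, Id4 had the largest difference of the 4, at 82.5 ± 27.2 CPM (n = 3) against 34.7 ± 15.1 (n = 4), or 1.27 (SE 0.60, edgeR adjusted p = 0.234). Id2 was at 0.50 (SE 0.74), Sox9 at 0.25 (SE 0.60) and Id3 at -0.16 (SE 0.62). No member had groups that did not overlap, against 14.2% of tested genes. Against hydrogel CT, the growth factor group was higher in Id3, at 101 ± 46.4 against 31.7 ± 23.6 CPM, or 1.65 (SE 0.67, edgeR adjusted p = 0.305), which did not pass. Id2 was at -1.36 (SE 0.80), Sox9 at 0.32 (SE 0.65) and Id4 at -0.16 (SE 0.64), and no member's groups were separate, against 18.2% of tested genes. Leaving out library 1732, the highest for Sox9, turned the Sox9 difference to -0.38, and that against SCI only to -0.40.

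**Figure D3:**
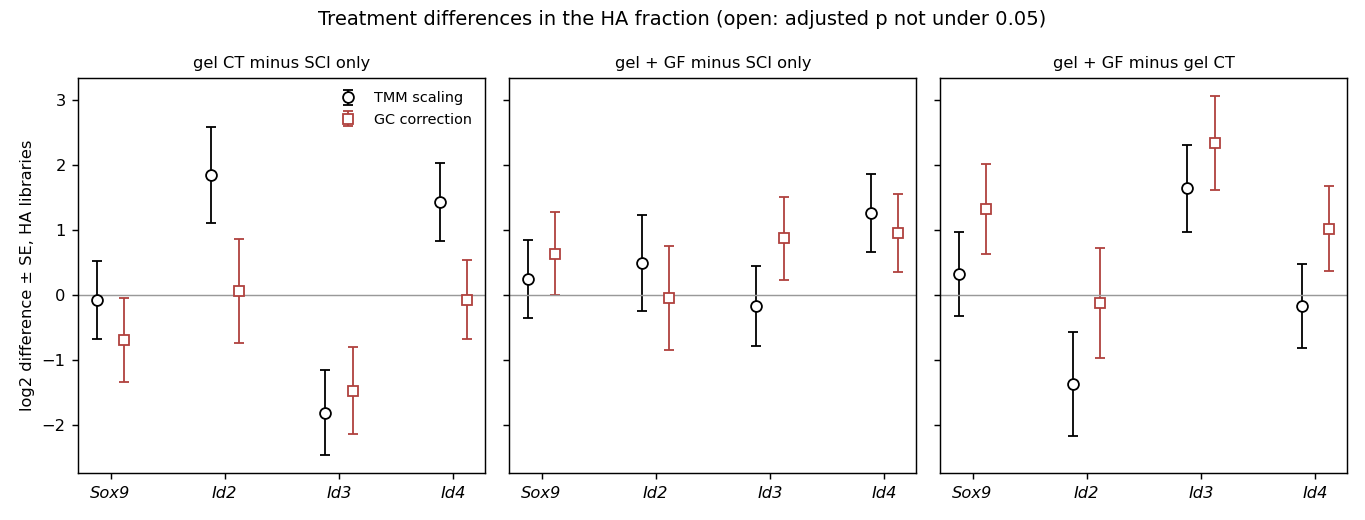
Log2 differences between treatments in the HA fraction for each member, with TMM scaling (circles) and with the G+C correction (squares), each ± 1 SE; gel CT and gel + GF are the hydrogel groups. No estimate passed an adjusted p of 0.05; between hydrogel CT and SCI only, Id2 moves from 1.86 to 0.07 and Id4 from 1.44 to -0.07 with the correction, while Id3 stays negative.

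In FT only 610 genes passed the filter on low counts, Id2 and Id4 among them; Sox9 and Id3 did not. Neither tested member passed by edgeR in any comparison, where 3.28% of genes did for hydrogel CT against SCI only, 3.77% for growth factors against SCI only and 0% for growth factors against hydrogel CT (23 genes at an unadjusted p of 0.05, none by DESeq2). Id2 averaged 34.1 ± 23.4 CPM with hydrogel CT (n = 4) and 6.12 ± 4.22 after SCI only (n = 4), a log2 difference of 1.77 (SE 0.83, edgeR adjusted p = 0.256). With growth factors it averaged 24.4 ± 31.5 CPM (n = 5), or 1.73 against SCI only (SE 0.79, edgeR adjusted p = 0.235). Both were below an unadjusted p of 0.05, as were 109 and 114 of the 610 genes. The first passed with only those groups in the fit (2.01, edgeR adjusted p = 0.0470), where 209 of 1517 genes did. The second passed with DESeq2 (2.30, DESeq2 adjusted p = 0.0460), where 79 of 606 genes did. Id2 was at -0.04 (SE 0.83) between the hydrogel groups. Id4 was at 0.68 (SE 0.88), -0.11 (SE 0.88) and -0.79 (SE 0.90) in the same 3 comparisons.

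Id3 is the 1 member that passes in the authors' own comparisons. The authors' deposited table gives it a log2 fold change of -3.93 and a false discovery rate of 0.0300 for the FT fraction of hydrogel CT against SCI only. Its reads there were 1 over 4 libraries against 53 over 4, a ratio of 9.75 between SCI only and hydrogel CT (pooled counts over pooled scaled library sizes) with a 95% counting interval of 1.68 to 392. With no filter on low counts the edgeR difference was -3.92 (adjusted p = 0.0719 by edgeR). Every hydrogel CT library of FT had a limit for 0 reads of at least 7.02 CPM, and 3 of the 4 SCI-only libraries were between 5.78 and 14.3 CPM, so the levels lie near what this depth can show. For HA, the authors' deposited table gives Id3 a log2 fold change of -1.63 for the same pair with a false discovery rate of 0.202.

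The partners and upstream genes of these regulators were read from lists of the pathway, of which many members have no row in the FT table. Among BMP and TGF-beta ligands 2 of 13 were tested between the fractions and 1 was higher in HA. It was Gdf11, a TGF-beta family ligand, at 2.25 (SE 0.55, edgeR adjusted p = 0.00273); Tgfb2 was at 1.47 and did not pass. Of 12 receptors 3 were tested, and 1 was lower in HA. This was Tgfbr1, the type I TGF-beta receptor, at 3.98 ± 5.57 CPM in HA against 42.6 ± 36.2 in FT (log2 -3.96, SE 0.71, edgeR adjusted p = 9.62e-05). The BMP receptors Bmpr1a (1.08) and Bmpr2 (-1.01) differed in sign and did not pass. Of 8 SMADs 2 were tested; Smad5, a BMP-responsive SMAD, was higher in HA at 1.92 (SE 0.69, edgeR adjusted p = 0.0440) and Smad3 was at 0.66. Of 12 inhibitors 3 were tested, and Fstl1, a secreted BMP antagonist, was higher at 1.41 (SE 0.49, edgeR adjusted p = 0.0382), while Twsg1 (1.49) and Smurf2 (-0.09) did not pass.

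The list medians were 1.86 for ligands, -1.01 for receptors, 1.29 for SMADs and 1.41 for inhibitors, beside 0.28 over all tested genes. Microglia and macrophage markers, of which 10 of 13 are listed, summed to 22.4 to 961 CPM in HA and 60.7 to 7843 CPM in FT, thus in the direction of Tgfbr1. Their part in its difference was not tested.

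Among E proteins and bHLH factors, the partners of ID proteins, 5 of 24 were tested and 2 were higher in HA. These were Olig2 at 3.40 (SE 0.48) and Olig1 at 3.17 (SE 0.38), bHLH factors of the oligodendrocyte lineage, with edgeR adjusted p = 3.00e-06 and 1.46e-07. The other 3 did not pass, among them Hey1 (1.22) and Bhlhe41 (0.86), and the median was 1.22. The E protein genes Tcf4 and Tcf12 have a row in the HA table only and Tcf3 in neither. Of 17 SOX genes, 9 have a row in HA and 2, Sox9 and Sox10, in FT; both passed. Sox10, a factor of the oligodendrocyte lineage, averaged 40.5 ± 19.5 CPM in HA and 13.1 ± 9.90 in FT (log2 1.41, SE 0.45, edgeR adjusted p = 0.0242). The part of oligodendrocyte lineage RNA in the HA values of the members was not tested. Ependymal cells, which also carry Sox9, had 4 of 9 markers listed in HA with a sum of 0.893 to 28.0 CPM. Endothelial cells, a known site of Id gene expression, had 3 of 12 listed with a sum of 0 to 2.68 CPM in HA and none listed in FT.

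Of 20 gliogenic transcription factors 6 were tested and 3 were higher in HA, with a median of 0.89. They were Nfix, an NFI factor (2.34, SE 0.37, edgeR adjusted p = 1.54e-05), the homeobox gene Dbx2 (2.85, SE 0.52, edgeR adjusted p = 0.000123) and the zinc finger gene Zbtb20 (1.23, SE 0.40, edgeR adjusted p = 0.0239). The other 3 did not pass, among them Nfic at 0.43. Of 13 genes described as SOX9 targets 2 were tested; Mmd2 was higher in HA (1.33, SE 0.46, edgeR adjusted p = 0.0356) and Chst11 was at 1.30 and did not pass. No listed pathway gene that was tested passed between treatments in the edgeR fits of all 3 groups. Of all tested genes, 0.0902% to 0.436% passed in HA and 0% to 3.77% in FT. Few listed genes were tested in FT, with no SOX, SMAD, ligand or inhibitor gene and not Id3.

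**Figure D4:**
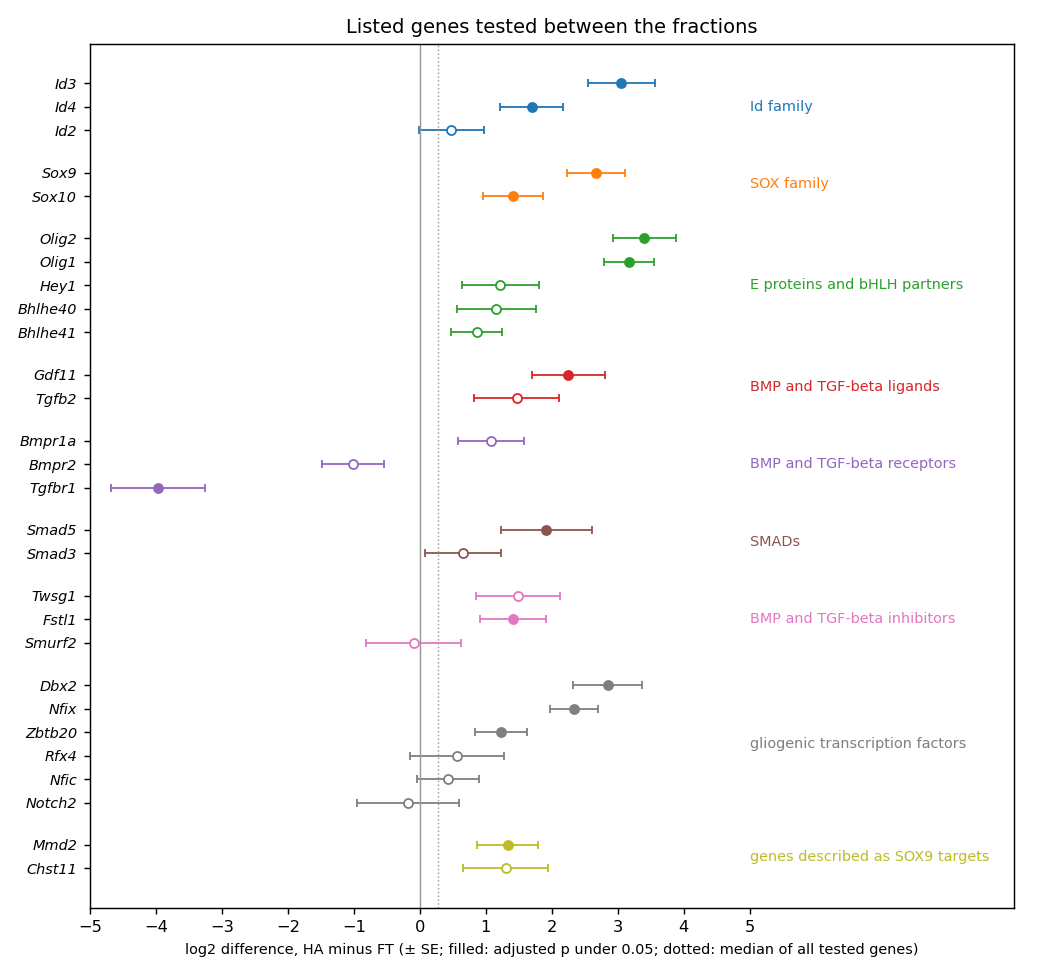
Log2 difference between HA and FT with ± 1 SE for each tested gene of the pathway lists, grouped by list; filled points passed an adjusted p of 0.05 and the dotted line is the median of all tested genes (0.28). Olig2 (3.40) and Olig1 (3.17) lie furthest to the right, followed by Id3 (3.05), and Tgfbr1 (-3.96) furthest to the left.

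The 4 members did not share 1 pattern over the 10 HA libraries. Pearson correlations of log2 CPM were 0.56 for Id2 with Id4, -0.37 for Id2 with Id3, -0.13 for Id3 with Id4, and 0.08, 0.17 and 0.22 for Sox9 with Id2, Id3 and Id4. The libraries share treatment groups and differ in depth, so these values are descriptions. The most similar of 6654 genes to Sox9 were Rbm8a (0.97), Marc2 (0.91), Nom1 (0.91), March5 (0.90) and Bub3 (0.88). Those to Id2 were Ampd3, Gtf2a1 and H2afv (0.88 each), Pigg and Laptm4b (0.87 each). Those to Id3 included Dync1h1 (0.96), Cadm4 (0.95), Rab31 (0.93) and Cln8 (0.91). Those to Id4 were Dnajb9 (0.93), Nmnat2 (0.92), Setd7, Me1 and Brd7 (0.91 each).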

How the data were processed

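RNA of the HA and FT fractions was amplified from low input (NuGEN Ovation) and sequenced as paired ends, per the labels' protocols. The submitters' processing notes name CASAVA 1.8.2, edgeR and mm10; which aligner, counter, strand setting and annotation were used is not given in the sources used here, so overlapping and antisense genes cannot be told apart. The authors deposited whole-number read counts per transcript, and, per the file headers, log2 fold changes with p-values and false discovery rates between treatments. Rows without a symbol (136 and 35, at most 0.319% of a library's counts) were left out, and 45 other per-sample columns were not used. No library was a copy of another in its group, and libraries of different groups were not compared for this.

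Counts were summed per gene symbol and tested with edgeR 4.0.16 in R 4.3.3 (quasi-likelihood, two-sided, TMM, filterByExpr with a minimum count of 10, Benjamini-Hochberg over all genes tested, threshold 0.05). The 3 groups of a fraction shared 1 fit; HA was compared with FT over the 10 title numbers found in both, with treatment as a term. SE is the log2 difference over the root of F. Intervals and limits cover counting error only, since amplified reads are not independent molecules. Alternatives were other scaling, DESeq2 1.42.0, other filters, a G+C correction (GENCODE M21 transcripts, 98.3% and 99.1% of rows matched), protein-coding genes alone, fits of 2 groups, a block for the title number and each library left out; all 23 libraries and single treatments were added after the data were seen. The code was tested on simulated counts, where the size of recovered differences was checked for HA against FT and within HA, but not within FT. Genes named are the 4 members, from each pathway list the 4 with the smallest p between fractions and any that passed, and the 5 most similar to each member, of which 1 is not reported here; the E protein genes, Yam1, Aqp4 and Gfap were named outside this rule. The members and lists were chosen with earlier results of these data known.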

Additional observations from a re-analysis of the deposited data

Results flagged for a closer look

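Each member was checked in the 4 groups with 4 or more libraries, 16 sets of values in all. Dixon's test was used to find a library far from the others of its group. For normally distributed values chance alone flags about 1 of 20. That rate does not hold for counts near 0, where 1 read beside libraries with 0 reads is always flagged. Sox9 in the FT library 1729 (hydrogel with growth factors) was at 53.1 CPM on 7 reads, while the other 4 libraries of its group lay between 0 and 9.40 CPM. Id3 in the FT library 1724 (hydrogel CT) was at 3.70 CPM on 1 read, while the other 3 had 0 reads.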

How the results depend on the processing

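Over the 22 alternatives run for HA against FT, the differences of Sox9, Id3 and Id4 stayed positive, from 2.11 to 3.24 for Sox9, 1.87 to 4.79 for Id3 and 1.38 to 2.78 for Id4. Id4 lost its call with the G+C correction, after SCI only and with hydrogel CT, and Sox9 with hydrogel CT, where 1 member passed. Id3 kept its call in all 22, and Id2 passed in none (adjusted p by edgeR or DESeq2 0.219 to 0.903). The single treatments among the 22 were fitted with TMM scaling only. With DESeq2 size factors or the G+C correction, Id3 lost calls within treatments, as given above.

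With the title number as a replicate block, Sox9 was at 2.70, Id2 at 0.60, Id3 at 3.19 and Id4 at 1.94, and no member's call changed. That fit called 673 genes against 678. That libraries of one number come from one tissue piece is inferred, since the design describes precipitate and flow-through of the same tissue. The deviations of same-numbered libraries from their group means correlated by -0.00017 to 0.0835.

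Of the members tested here between treatments (all 4 in HA, Id2 and Id4 in FT), Id2 in FT alone passed under any alternative. For hydrogel CT against SCI only, 1 member passed with 2 groups in the fit, where 209 of 1517 genes did. For growth factors against SCI only, 1 member passed with DESeq2, where 79 of 606 genes did. Changes of sign were all in differences that did not pass, and the cause was not tested. With the G+C correction, Id4 in HA was at 1.03 (growth factors against hydrogel CT) and -0.0668 (hydrogel CT against SCI only), Id2 at -0.0466 and Id3 at 0.87 (growth factors against SCI only), and Id2 in FT at 0.12 (growth factors against hydrogel CT). With DESeq2, Id4 in HA was at 0.0029 and Id2 in FT at 0.0711 (growth factors against hydrogel CT), and Id4 in FT at 0.23 (growth factors against SCI only). With DESeq2 size factors these were 0.0020, 0.14 and 0.41. With no filter on low counts, Sox9 in HA was at 0.0578 (hydrogel CT against SCI only).

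Leaving out single libraries, Id2 in FT ran from -0.48 to 0.68 and Id4 in HA from -0.55 to 0.21 (growth factors against hydrogel CT). Id3 in HA ran from -0.53 to 0.195 and Id4 in FT from -0.49 to 0.79 (growth factors against SCI only). Sox9 in HA ran from -0.30 to 0.0633 (hydrogel CT against SCI only), from -0.40 to 0.57 (growth factors against SCI only) and from -0.38 to 0.64 (growth factors against hydrogel CT), the lowest of the last 2 without 1732. Between hydrogel CT and SCI only in HA, Id2 ran from 1.12 (without 1762) to 2.24 and Id3 from -2.53 (without 1759) to -1.37.

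Counts over all genes moved more than the members: 496 to 916 called between fractions (678), 3 to 244 for hydrogel CT against SCI only in HA (13), 2 to 715 for growth factors against SCI only (29) and 0 to 293 between the hydrogel groups (6). In FT they were 1 to 209 (20), 5 to 174 (23) and 0 throughout. Within SCI only, hydrogel CT and growth factors they were 40 to 364 (190), 8 to 247 (126) and 243 to 809 (601). Protein-coding genes alone left no member tested in FT.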

Other observations

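Over the 10 HA libraries, Id2 and Id4 followed the water channel gene Aqp4, with Pearson correlations of log2 CPM of 0.80 and 0.85, while Id3 was at -0.37 and Sox9 at 0.21. With Olig1, Id3 was at 0.66, Id2 at -0.49, Id4 at -0.27 and Sox9 at 0.27. With Gfap, the gene whose promoter drove Cre, the values were 0.44 for Id3, 0.35 for Sox9, and 0.02 for both Id2 and Id4. With the locus Yam1, Id2 was at -0.71, Id4 at -0.75, Id3 at 0.68 and Sox9 at -0.09. These 4 genes were picked as reference points outside the rule for named genes, the libraries share treatment groups and differ in depth, and no test was made.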
